A study of Mus musculus with 14 samples.

Results

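The circadian clock genes described here are 10 genes taken by symbol: Clock, Arntl, Per1, Per2, Per3, Cry1, Cry2, Nr1d1, Nr1d2 and Dbp. All 10 were listed among the 43472 genes of the RNA sequencing tables, and all 10 passed the minimum mean normalised count of 10 in both tables. RNA was measured in 14 libraries of primary fibroblasts, the connective tissue cells of the skin, grown from the tail tips of C57BL/6 mice and scratched to model a wound. Cells were left without treatment (Untreated) or received an autologous micrograft preparation (AMG-treated), which is the soluble and filtered fraction of disrupted mouse skin, diluted in medium. Replicate 1 was collected at 1, 5, 12 and 24 h in both groups (8 libraries, 1 per group and time), and replicates 2, 3 and 4 were collected at 5 h in both groups (6 libraries). Both groups therefore shared the strain, the type of serum-containing medium and the scratch, and only the AMG-treated group received AMG. Whether Untreated cells received fresh medium when AMG was added is not stated. The age of the animals, the number of animals behind a culture and the hour of the day at collection are not given in the sources used here.

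The clock of a mammalian cell is a transcriptional feedback loop. CLOCK and BMAL1, the product of Arntl, form a dimer that activates genes carrying E-box sequences. Among these genes are the Period and Cryptochrome genes, whose proteins return to the nucleus and inhibit the dimer, and the nuclear receptors REV-ERB alpha (Nr1d1) and REV-ERB beta (Nr1d2), which repress Arntl. Dbp is a direct output of the dimer and encodes a PAR bZIP transcription factor that acts on D-box sequences. Cultured fibroblasts hold such clocks, and the cells of a dish drift apart in phase until a stimulus such as fresh serum aligns them.

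The promoter sequences of these genes were searched for the sites of the factors that the genes encode, because the loop runs through those sites. RefSeq on the assembly GRCm38.p6, which corresponds to mm10, gave 13 windows for 9 of the 10 genes, each from 250 bases before to 50 bases after an annotated start. Per2 had no entry. Both strands were searched for the E-box CACGTG, the D-box TTATGTAA or TTACGTAA, the REV-ERB and ROR core TAGGTCA or TGGGTCA, and the cAMP element TGACGTCA, and no match overlapped another. The E-box was found in 2 of the 13 windows, 1 of Per1 and 1 of Cry1, and in 7.15% of 32851 mouse promoter windows of the same length. The D-box was found in 1 of the 13 windows, that of Per3, with 2 copies, and in 1.06% of all windows. The REV-ERB and ROR core was found in 1 of the 13 windows, of Arntl, and in 6.45% of all windows. The cAMP element was found in 0 of the 13 windows and in 1.79% of all windows. Sites outside these windows or with other letters were not searched, so no match does not mean that a gene lacks the site. The bases upstream of the start are shown for the 3 promoters with an E-box or a D-box, in capitals, together with 30 bases around the core downstream of an Arntl start. Each is written from 5′ to 3′ on the strand of its gene, and a match describes these letters only.
Per1, chr11:69098699-69098948, plus strand, E-box in capitals: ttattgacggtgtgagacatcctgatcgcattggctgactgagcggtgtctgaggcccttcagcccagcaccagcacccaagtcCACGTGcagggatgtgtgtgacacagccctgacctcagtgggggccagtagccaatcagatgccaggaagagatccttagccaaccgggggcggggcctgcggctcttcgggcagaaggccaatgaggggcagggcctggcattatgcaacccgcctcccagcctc
Cry1, chr10:85185055-85185304, minus strand, E-box in capitals: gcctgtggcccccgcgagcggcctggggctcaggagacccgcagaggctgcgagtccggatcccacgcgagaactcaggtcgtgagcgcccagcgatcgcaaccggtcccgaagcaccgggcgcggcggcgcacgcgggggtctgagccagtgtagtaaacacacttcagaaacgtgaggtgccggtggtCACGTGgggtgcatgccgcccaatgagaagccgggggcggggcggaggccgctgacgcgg
Per3, chr4:151044666-151044915, minus strand, D-boxes in capitals: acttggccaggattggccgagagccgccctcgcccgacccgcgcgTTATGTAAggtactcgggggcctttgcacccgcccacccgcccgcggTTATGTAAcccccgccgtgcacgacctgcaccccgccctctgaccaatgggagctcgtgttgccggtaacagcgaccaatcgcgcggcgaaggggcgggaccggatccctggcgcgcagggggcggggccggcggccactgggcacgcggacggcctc
Arntl, chr7:113207528-113207557, plus strand, REV-ERB and ROR core in capitals: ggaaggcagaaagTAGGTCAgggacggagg

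Between 12545537 and 34696529 reads per library were assigned to genes, and 3 reads, the floor used here, corresponded to a normalised count of 1.62 to 5.22. All 10 of 10 fibroblast markers had reads in every library, with a summed level of 13960 to 52865 CPM (reads scaled to a common library total). Keratinocyte markers summed to 5.16 to 41.9 CPM, carried by Dsp and Krt10, which had reads in every library, while Krt5 and Krt14 had at most 3 reads and Krt1 was at 0 throughout. Leukocyte markers summed to 5.02 to 71.0 CPM, with Lyz2 and Cd68 read in every library and Cd3e at 0 in all 14. Skeletal muscle markers summed to 15.002 to 417 CPM, nearly all of it Acta1, with at most 3 reads of Ckm and 1 of Myh2. Ribosomal protein genes (88 genes) took 7.0% of the reads of Untreated 5h replicate 1 and 5.10% of those of AMG-treated 1h replicate 1, against 2.27% to 3.47% in the other 12 libraries. Replicate 1 values of AMG-treated cells at 1 h and of Untreated cells at 5 h rest on these 2 libraries. Because the table of replicate 1 and the table of replicates 2 to 4 were scaled separately, levels are compared only within a table.

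The first question was how the clock genes of AMG-treated fibroblasts differed from those of Untreated ones at 5 h (replicates 2 to 4). Arntl and Cry1 were higher with AMG, and Clock, Per2, Per3 and Dbp were lower, and these 6 genes passed the test once the replicate number was a block in the model. Dbp had the largest fold change of the 10 genes on the log2 scale, with a mean of 98.8 normalised counts in Untreated and 38.2 in AMG-treated libraries. Without the block, 0 of the 10 genes passed an adjusted p of 0.05 with limma or with edgeR, and 1 passed with DESeq2 (Dbp). At an unadjusted p of 0.05, limma passed 3 of the 10 (Clock, Cry1 and Dbp). In bulk RNA, a change in the share of cells that express a gene and a change in RNA per cell cannot be told apart.

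These counts are read against all genes tested. Without the block, 1.24% of the 13096 genes tested passed with limma, 1.17% of 12961 with edgeR and 8.32% of 13659 with DESeq2. At an unadjusted p of 0.05, limma passed 23.1%. With the block, limma passed 37.2% (17.9% higher and 19.3% lower with AMG) and edgeR 36.4% of 13468. With the block, limma passed 34.1% when a trend on transcript length was also removed. Of the 10 clock genes, 6 passed with the block in limma (2 higher, 4 lower), the same 6 in edgeR, and 5 with the length trend also removed, and the difference between these shares was not tested. The Untreated and AMG-treated values did not overlap for 3 of the 10 genes (Clock, Cry1 and Dbp), against 28.7% of all genes. All 3 pairs of the same replicate number differed in the same direction for 10 of the 10 genes, against 66.4% of all genes. The median log2 fold change was -0.31 over the 10 genes and -0.02 over all genes. Over the same libraries, the summed level of the 10 fibroblast markers was 35834 to 52865 CPM in Untreated and 27910 to 36418 CPM in AMG-treated libraries. That of the 6 keratinocyte markers was 8.37 to 15.7 CPM in Untreated and 5.16 to 7.73 CPM in AMG-treated libraries, and the part of either in these differences was not tested.

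**Figure D1:**
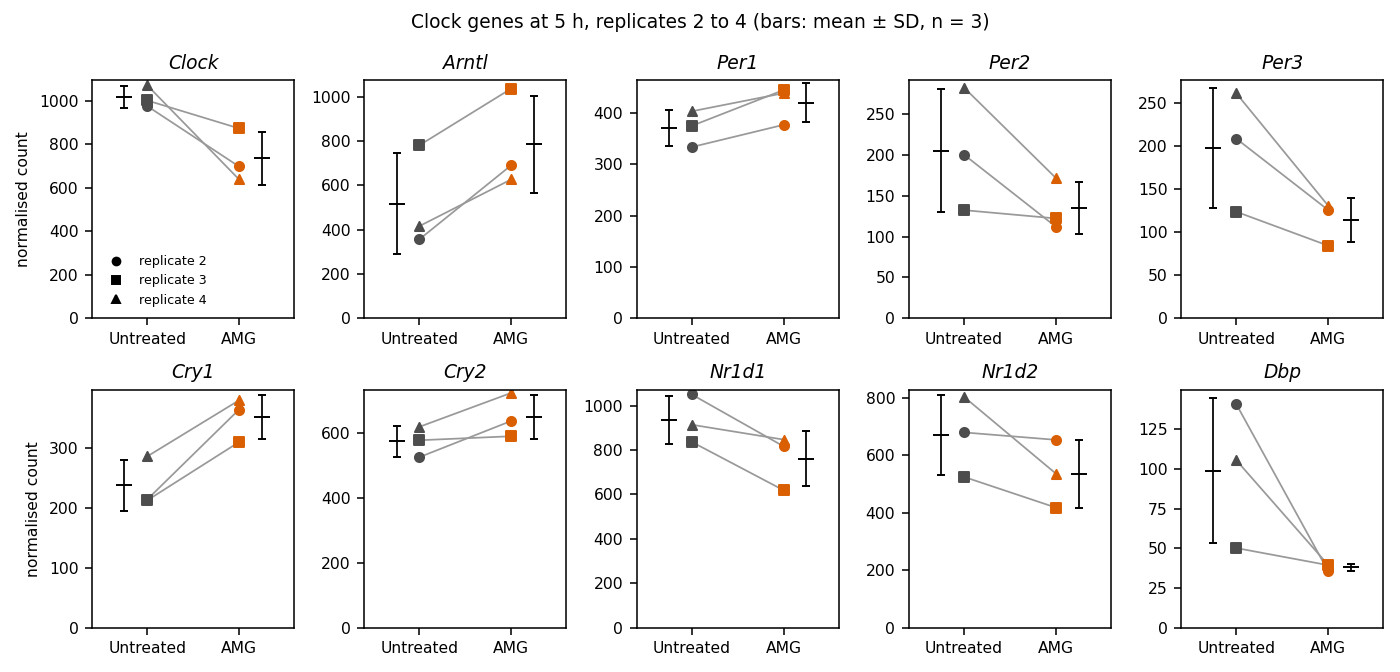
Normalised counts of the 10 clock genes at 5 h in replicates 2 to 4 (vertical axis, linear from 0), with lines joining the Untreated and AMG-treated library of the same replicate number and bars giving the mean ± SD (n = 3). The lines of every gene slope one way in all 3 pairs, and the groups are separate for Clock, Cry1 and Dbp.

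Among the activators, Clock encodes the histone acetyltransferase partner of the dimer (chr5:76209868-76304792, minus strand, in mm10). Clock was at 977, 1003 and 1073 normalised counts in Untreated replicates 2, 3 and 4, and at 698, 874 and 639 in the AMG-treated libraries of the same numbers. All AMG-treated values lay below all Untreated values, with means of 1017 ± 49.6 and 737 ± 122 (SD, n = 3). The log2 fold change was -0.48 ± 0.15 (SE), with an adjusted p of 0.142 by limma without the block and 0.0148 with it. Over all alternatives the adjusted p ran from 0.0141 to 0.471, and the call with the block was lost when a trend on transcript length was also removed (log2 fold change -0.18, adjusted p = 0.180 by limma).

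Arntl (chr7:113207465-113314126, plus strand) encodes BMAL1, the partner without which the dimer does not form. Its normalised counts were 356, 781 and 416 in Untreated replicates 2, 3 and 4, and 691, 1037 and 627 in the AMG-treated libraries. The groups overlapped, because replicate 3 was the highest library in both, while each AMG-treated library lay above the Untreated library of its own number. The log2 fold change was 0.65 ± 0.33 (SE), with an adjusted p of 0.285 by limma without the block, 0.00512 with it, and 0.0019 to 0.543 over all alternatives. Arntl was thus higher and Clock lower in the same AMG-treated libraries, although their products act as 1 complex.

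Of the Period genes, which encode the inhibitors that give the loop its delay, Per2 and Per3 were lower with AMG and Per1 was not called. Per2 (chr1:91415982-91459324, minus strand) was at 200, 132 and 282 normalised counts in Untreated replicates 2, 3 and 4, and at 112, 122 and 172 with AMG. The difference was smallest in replicate 3, and the log2 fold change was -0.55 ± 0.32 (SE). Its adjusted p was 0.339 by limma without the block and 0.0460 with it, 0.0409 to 0.777 over all alternatives, and 0.0762 when the length trend was removed together with the block. Per3 (chr4:151003652-151044665, minus strand), a member of the family with a lesser part in the core loop, was at 209, 124 and 262 normalised counts in Untreated and at 126, 84.4 and 131 in AMG-treated libraries. The Per3 groups overlapped only because Untreated replicate 3 lay just below the AMG-treated values of replicates 2 and 4. The log2 fold change of Per3 was -0.76 ± 0.33 (SE), with an adjusted p of 0.232 by limma, 0.0101 with the block and 0.00834 to 0.819 over all alternatives. Per1 (chr11:69095217-69109960, plus strand), which is also an immediate early gene, was at 333, 375 and 403 normalised counts in Untreated and at 377, 444 and 438 in AMG-treated libraries. Its log2 fold change of 0.18 had a 95% interval of -0.18 to 0.54 and an adjusted p of 0.50 by limma (0.265 with the block), so the interval held differences of either sign.

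Cry1 and Cry2 encode the Cryptochromes, of which CRY1 is the stronger repressor of the CLOCK and BMAL1 dimer. Cry1 (chr10:85131700-85185064, minus strand) was at 214, 213 and 287 normalised counts in Untreated replicates 2, 3 and 4, and at 365, 311 and 381 with AMG. All AMG-treated values were above all Untreated values, with means of 352 ± 36.7 and 238 ± 42.1 (SD, n = 3). The log2 fold change was 0.57 ± 0.19 (SE), with an adjusted p of 0.149 by limma, 0.0123 with the block and 0.0114 to 0.384 over all alternatives. Cry2 (chr2:92403646-92434043, minus strand) was at 526, 578 and 619 normalised counts in Untreated and at 637, 590 and 724 in AMG-treated libraries. Its groups overlapped, and its log2 fold change of 0.18 had a 95% interval of -0.16 to 0.51 and an adjusted p of 0.476 by limma (0.236 with the block). Cry1 and Per2 thus differed in opposite directions. The ratio of Cry1 to Per2 reads within a library was chosen with these values known. It was 1.07, 1.61 and 1.02 in Untreated and 3.26, 2.54 and 2.22 in AMG-treated libraries. In the 5 h pair of replicate 1 this ratio went the other way, at 12.5 in the Untreated and 10.6 in the AMG-treated library.

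Neither REV-ERB gene was called with or without the block. Nr1d1 (chr11:98767932-98775333, minus strand) was at 1050, 837 and 914 normalised counts in Untreated replicates 2, 3 and 4, and at 817, 619 and 847 with AMG. Its log2 fold change was -0.30 ± 0.17 (SE), with an adjusted p of 0.322 by limma, 0.0533 with the block and 0.0159 to 0.9995 over all alternatives. The lowest of these came from the block together with the length correction, the only alternative that called Nr1d1. Nr1d1 shares 263 exonic bases with Thra on the other strand, and Thra itself had a log2 fold change of -0.47 (adjusted p = 0.125 by limma, 0.00862 with the block). The strand setting of the read counting was not stated, so reads of these overlapping genes cannot be told apart. Nr1d2 (chr14:18204054-18239127, minus strand), at 680, 525 and 804 normalised counts in Untreated and at 654, 418 and 537 in AMG-treated libraries, had a log2 fold change of -0.32 with a 95% interval of -0.86 to 0.22 and an adjusted p of 0.423 by limma (0.0739 with the block).

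The output gene Dbp (chr7:45705088-45710203, plus strand) was at 141, 50.1 and 105 normalised counts in Untreated replicates 2, 3 and 4. With AMG it was at 35.6, 39.4 and 39.5, below every Untreated value. The Untreated libraries varied widely (98.8 ± 45.7, SD, n = 3) and the AMG-treated libraries little (38.2 ± 2.21, SD, n = 3), and the lowest library held 28 reads. The log2 fold change was -1.23 ± 0.41 (SE), with an adjusted p of 0.151 by limma, 0.0153 with the block, 0.0329 by DESeq2 and 0.0119 to 0.362 over all alternatives. Dbp shares 539 exonic bases with Sphk2 on the other strand. Sphk2 had a log2 fold change of 0.29 (adjusted p = 0.312 by limma, 0.0437 with the block), and reads shared by the 2 genes cannot be told apart.

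Arntl and Dbp mark opposite sides of the loop, and their ratio within a library does not depend on how libraries were scaled. The ratio was taken of reads not divided by gene length, so it compares libraries and not the levels of the 2 genes, and it was chosen with these values known. At 5 h it was 2.53, 15.6 and 3.94 in Untreated replicates 2, 3 and 4, and 19.4, 26.4 and 15.9 with AMG. The groups did not overlap, but Untreated replicate 3 lay close to the AMG-treated libraries. In replicate 1 the Untreated ratio was 18.9, 18.7, 1.03 and 2.68 at 1, 5, 12 and 24 h, and the AMG-treated ratio was 20.1, 35.3, 10.8 and 2.89. The ratio of both groups was therefore nearly equal at 1 and 24 h and furthest apart at 12 h, with 1 library per point.

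**Figure D2:**
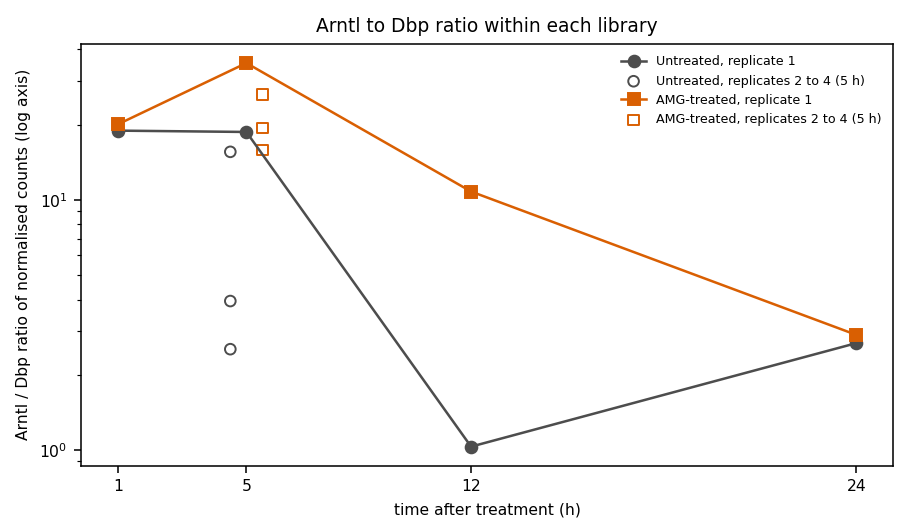
Ratio of Arntl to Dbp normalised counts within each library (vertical axis, log scale) against time after treatment in hours, with lines for replicate 1 and open symbols for replicates 2 to 4 at 5 h. At 12 h the Untreated library is at 1.03 and the AMG-treated library at 10.8, and at 5 h the open AMG-treated squares (15.9 to 26.4) lie above the open Untreated circles (2.53 to 15.6).

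The fourth pair at 5 h, replicate 1, was scaled in the other table and did not enter this fit. Its AMG-treated to Untreated ratio had the sign of the fit for 6 of the 10 genes. The share of all genes was not taken for this count or for the 4 pairs, so neither sets the clock genes apart. Over all 4 pairs, Arntl, Per1, Cry1 and Cry2 were higher with AMG in 4 of 4, and Nr1d2 and Dbp were lower in 4 of 4. Clock, Per2, Per3 and Nr1d1 were lower in 3 pairs and higher in replicate 1, with log2 ratios there of 0.13, 0.72, 1.38 and 0.91. The Untreated library of that pair is the one with 7.0% of reads in ribosomal protein genes, and the part of that difference in these ratios was not tested.

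Per kilobase of exon, the level of the 10 genes in Untreated cells at 5 h (replicates 2 to 4) was highest for Nr1d1, at 303 ± 35.2 normalised counts per kb (SD, n = 3), and lowest for Per3, at 20.6 ± 7.24. Nr1d2 (124 ± 25.8) and Cry2 (90.9 ± 7.41) followed Nr1d1, and their ranges overlapped each other. Clock, Cry1, Arntl and Per1 came next, with means of 74.1, 71.3, 68.8 and 65.8 normalised counts per kb, and each range overlapped the next. Per2 (35.0 ± 12.8), Dbp (33.01 ± 15.3) and Per3 were the lowest, and here too each range overlapped the next. Of neighbours in this order, ranges did not overlap between Nr1d1 and Nr1d2, between Cry2 and Clock, and between Per1 and Per2. Arntl, from 47.4 to 104, also overlapped Nr1d2, Cry2 and Per2, and Cry1 overlapped Cry2, so only Nr1d1 was separate from all the other genes. With AMG, Dbp stood at 12.8 ± 0.737 normalised counts per kb, next to Per3 at 11.8 ± 2.66.

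The second question was how the clock genes ran over 24 h. Replicate 1 had 1 library per group and time, so its values carry no replicate error and no test was made. In Untreated cells, 9 of the 10 genes ranged more than 2-fold over the 4 times, all but Clock, against 52.2% of all 13498 genes with a mean of at least 10. With AMG, 8 of the 10 did so, all but Clock and Per1, against 50.4% of all genes. The median range was 2.10 (log2) in Untreated and 1.49 in AMG-treated cells for the clock genes, and 1.04 and 1.01 for all genes. With AMG, the 5 h library was the lowest of the 4 times for 5 of the 10 genes and for 20.9% of all genes. Its ribosomal protein share was 3.24%. The 5 h Untreated library was the lowest of the 4 times for 8 of the 10 genes and for 39.6% of all genes, and it is a library with a high ribosomal protein share. Without the 5 h libraries, an alternative chosen after this was seen, 5 of the 10 genes ranged more than 2-fold in Untreated cells (Arntl, Per3, Cry1, Nr1d1 and Dbp), against 19.8% of all genes, and 7 of the 10 with AMG, against 42.4%. Without the 1 h libraries the counts were 8 and 6 of 10, against 40.7% and 24.5% of all genes.

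**Figure D3:**
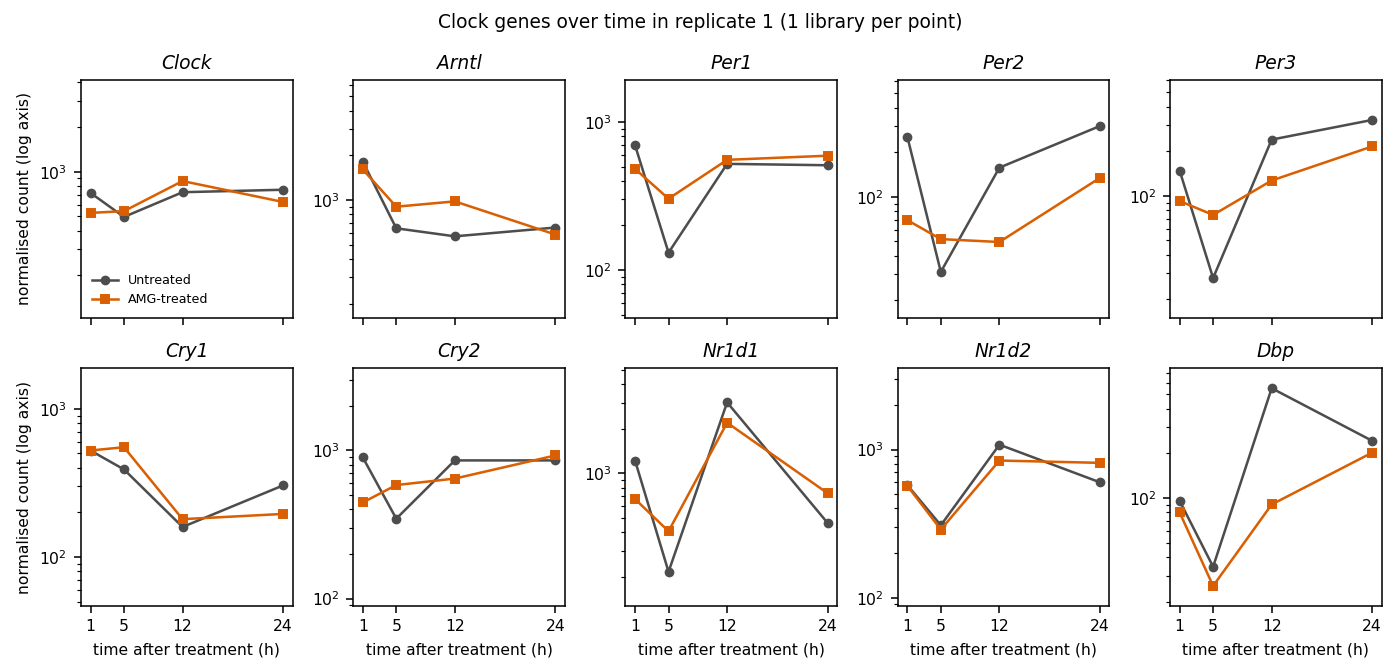
Normalised counts of the 10 clock genes in replicate 1 against time after treatment in hours (vertical axis on a log scale, 1 library per point), with grey circles for Untreated and orange squares for AMG-treated cells. Nr1d1 peaks at 12 h in both groups, and Dbp reaches 551 at 12 h in Untreated but 90.5 in AMG-treated cells.

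Arntl and Cry1 were high early and low late. Arntl was at 1815, 644, 569 and 652 normalised counts at 1, 5, 12 and 24 h in Untreated cells, and at 1607, 901, 979 and 585 with AMG. Its highest value was thus at 1 h in both groups, and the groups were furthest apart at 12 h. Cry1 was at 523, 390, 160 and 304 in Untreated and at 523, 551, 180 and 195 in AMG-treated cells, with the lowest value at 12 h in both. Clock stayed within a 1.52-fold range in Untreated (495 to 755) and a 1.64-fold range in AMG-treated cells (527 to 864).

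The REV-ERB genes and Dbp had their Untreated peak at 12 h, the time at which Untreated Cry1 was lowest. Untreated Arntl was also lowest then, but it differed little between 5, 12 and 24 h (644, 569 and 652). With AMG, Arntl was lowest at 24 h. Nr1d1 was at 1217, 216, 3006 and 463 normalised counts at 1, 5, 12 and 24 h in Untreated cells, a 13.8-fold range, and at 669, 406, 2193 and 734 with AMG, a 5.39-fold range. Both courses were highest at 12 h and lower again at 24 h. Without the 5 h libraries Nr1d1 still ran from 463 at 24 h to 3006 at 12 h in Untreated cells. Nr1d2 followed with smaller steps, at 575, 308, 1078 and 601 in Untreated and at 569, 289, 842 and 813 in AMG-treated cells. Dbp was at 95.8, 34.4, 551 and 244 in Untreated cells, a 15.6-fold range. Without the 5 h libraries its log2 range fell from 3.96 to 2.51, below that of Nr1d1 (2.70). With AMG it was at 80.0, 25.5, 90.5 and 203, so that its highest value came at 24 h and the 12 h peak of the Untreated course was not present.

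The Period genes and Cry2 were highest at 1 h or at 24 h in Untreated cells. Per2 was at 254, 31.1, 157 and 300 normalised counts at 1, 5, 12 and 24 h in Untreated and at 69.6, 51.8, 49.6 and 134 in AMG-treated cells. Per3 was at 148, 27.9, 239 and 325 in Untreated and at 92.2, 74.3, 127 and 215 in AMG-treated cells. Both genes ended the course at their highest value in either group. Per1 was at 695, 131, 521 and 510 in Untreated and at 482, 303, 555 and 591 in AMG-treated cells, and Cry2 was at 896, 346, 855 and 855 in Untreated and at 445, 583, 645 and 923 in AMG-treated cells. Apart from the 5 h library, Untreated Per1 stayed between 510 and 695 and Untreated Cry2 between 855 and 896. When the reads of all 8 libraries at 5 h were scaled together, Untreated replicate 1 held 115 normalised counts of Per1 against 334 to 406 in the other 3 Untreated libraries. AMG-treated replicate 1 held 266, against 378 to 445 in the other AMG-treated libraries.

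The third question was where AMG-treated and Untreated cells differed at each time in replicate 1. The widest separation of any clock gene was that of Dbp at 12 h, where 753 reads in Untreated and 95 in AMG-treated cells gave a 6.03-fold lower level with AMG. The log2 ratio was -2.59, with an exact (Clopper-Pearson) 95% interval for counting error of -2.93 to -2.30, and 0.526% of all genes had a lower ratio at that time. Neither 12 h library stood apart in its ribosomal protein share. Dbp was also lower with AMG in the other libraries, with log2 ratios of -0.26, -0.42 and -0.26 at 1, 5 and 24 h, and the counting intervals at 1 and 5 h included 0. Sphk2, the gene that overlaps Dbp, was at 923 and 998 normalised counts at 12 h in Untreated and AMG-treated cells, a log2 ratio of 0.11.

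Per2 was more than 2-fold lower with AMG at 3 of the 4 times. Its log2 ratio was -1.85 at 1 h (counting interval -2.38 to -1.39), -1.65 at 12 h (-2.13 to -1.22) and -1.16 at 24 h (-1.44 to -0.89). At 5 h it was 0.72, from 19 reads in Untreated and 67 in AMG-treated cells, with a counting interval of -0.02 to 1.55. The 1 h value rests on the AMG-treated library with a high ribosomal protein share, whereas the 12 and 24 h values do not. Per3 had log2 ratios of -0.67, 1.38, -0.91 and -0.59 at 1, 5, 12 and 24 h, so it too was lower with AMG except at 5 h.

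Of the remaining genes, only Per1 at 5 h and Cry2 at 1 h differed more than 2-fold with the authors' scaling. Arntl had log2 ratios of -0.18, 0.48, 0.78 and -0.16 at 1, 5, 12 and 24 h, with the 12 h value (counting interval 0.65 to 0.92) in the direction opposite to Dbp. Cry2 was at -1.01, 0.75, -0.41 and 0.11, and Per1 at -0.53, 1.2, 0.09 and 0.21. Nr1d1 was at -0.86, 0.91, -0.45 and 0.66, changing sign at each step. Thra, the gene that overlaps Nr1d1, was at 0.15, -0.27, -0.77 and -0.65. Clock, Cry1 and Nr1d2 stayed between -0.64 and 0.50 at every time.

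Counted over the 10 genes with the authors' scaling, 2 were more than 2-fold lower with AMG at 1 h (Per2 and Cry2), 2 at 12 h (Per2 and Dbp) and 1 at 24 h (Per2), against 10.7%, 6.9% and 8.05% of all genes, and 0 at 5 h, against 12.6%. More than 2-fold higher were 2 at 5 h (Per1 and Per3), against 13.3% of all genes, and 0 at the other times, against 11.3%, 5.93% and 6.05%. The median log2 ratio of the 10 genes was -0.49, 0.61, -0.38 and -0.21 at 1, 5, 12 and 24 h, and that of all genes was -0.06, -0.01, -0.01 and 0.02. The 1 h and 5 h medians, of opposite sign, each rest on a library with a high ribosomal protein share.

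**Figure D4:**
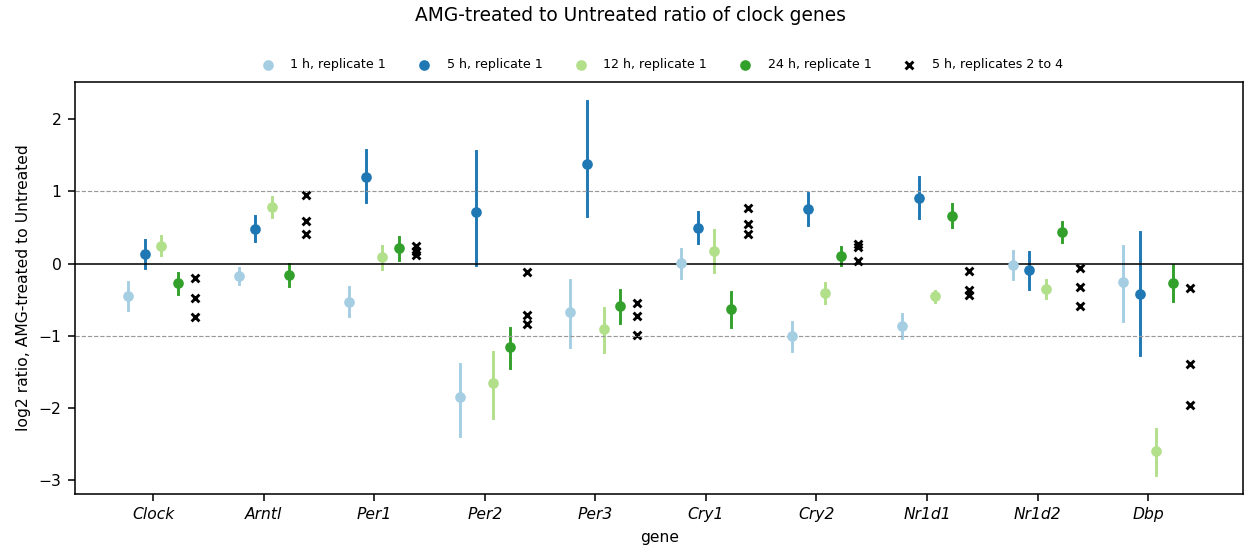
AMG-treated to Untreated log2 ratio of each clock gene (vertical axis), with circles for the 4 times of replicate 1, bars for the exact 95% counting interval, crosses for the 3 pairs of replicates 2 to 4 at 5 h, and dashed lines at a 2-fold difference. Among the circles, Dbp at 12 h (-2.59) and Per2 at 1 and 12 h (-1.85 and -1.65) lie furthest from 0. The Dbp cross of replicate 2 is at -1.95. The 5 h circles of Per2, Per3 and Nr1d1 lie above 0 while their crosses lie below it.

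Beyond the 10 genes, 23 other genes of the clock pathway were listed by role, and 22 of them passed the minimum (Hlf did not). At 5 h in replicates 2 to 4, 0 of the 22 passed with limma without the block. With edgeR 0 of 21 tested passed, and with DESeq2 2 of 23 (Cdkn1a and Timeless). The shares of all genes in these fits were 1.24%, 1.17% and 8.32%. At an unadjusted p of 0.05, limma passed 4 of the 22, against 23.1% of all genes. With the block, 6 passed (3 higher and 3 lower, 27.3%), against 37.2% of all genes. The additional activators Npas2 and Arntl2, the 3 ROR receptors and the D-box factors Tef and Nfil3 had 0 calls with the block, the 4 repressors had 2, the 7 kinases and ligase parts had 1 and the 4 outputs had 3. The median log2 fold change over the 22 genes was -0.0042.

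Among the repressors, Bhlhe40 encodes DEC1, which competes for E-boxes, and it was at 2334, 1255 and 2447 normalised counts in Untreated replicates 2, 3 and 4 and at 4158, 1806 and 4633 with AMG. Its log2 fold change was 0.76 ± 0.41 (SE), with an adjusted p of 0.312 by limma, 0.000866 with the block and 0.000461 to 0.631 over all alternatives. In replicate 1 its log2 ratios at 1, 5, 12 and 24 h were 1.52, 1.05, -1.34 and -0.93, so the direction turned between 5 and 12 h, with 1 library per point. The 1 and 5 h ratios each rest on a library with a high ribosomal protein share, whereas the 12 and 24 h ratios do not. Timeless, named after a fly clock gene and active at replication forks, was at 107, 135 and 157 normalised counts in Untreated and at 68.7, 64.8 and 45.2 in AMG-treated libraries. The groups did not overlap, and the log2 fold change was -1.15 ± 0.28 (SE), with an adjusted p of 0.0940 by limma, 0.00780 with the block and 0.00651 to 0.618 over all alternatives. In the 5 h pair of replicate 1 Timeless lay the other way, at a log2 ratio of 1.37 (13 reads in Untreated and 73 in AMG-treated, counting interval 0.54 to 2.38).

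Csnk1e encodes casein kinase 1 epsilon, which phosphorylates the PER proteins. It was at 1505, 1947 and 1712 normalised counts in Untreated and at 2664, 2268 and 2440 in AMG-treated libraries, without overlap. Its log2 fold change was 0.52 ± 0.14 (SE), with an adjusted p of 0.109 by limma, 0.00892 with the block and 0.00375 to 0.323 over all alternatives.

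The called outputs ran in both directions. Cdkn1a, which encodes the cell cycle inhibitor p21, was at 9711, 9165 and 9594 normalised counts in Untreated and at 21465, 13104 and 19116 in AMG-treated libraries, a log2 fold change of 0.88 ± 0.20 (SE). Its adjusted p was 0.0837 by limma, 0.00107 with the block and 0.000742 to 0.294 over all alternatives. Wee1, a kinase that holds cells before mitosis and an E-box target of the dimer, was at 115, 116 and 90.3 normalised counts in Untreated and at 34.4, 91.0 and 28.2 in AMG-treated libraries. The Wee1 groups overlapped at AMG-treated replicate 3, and its log2 fold change was -1.24 ± 0.46 (SE), with an adjusted p of 0.177 by limma, 0.0119 with the block and 0.0101 to 0.424 over all alternatives. Usp2, a deubiquitinase with rhythmic transcription, was at 166, 251 and 191 normalised counts in Untreated and at 113, 209 and 81.3 in AMG-treated libraries, with an adjusted p of 0.310 by limma, 0.0305 with the block and 0.0305 to 0.646 over all alternatives. AMG-treated replicate 3 was the treated library nearest to the Untreated values for these 3 outputs and for Bhlhe40, and without it 6 of the 22 genes passed by limma with no block, and 1 of the 10 clock genes (Clock, adjusted p = 0.0263), against 16.8% of all genes. Leaving out any other library gave 0 in both lists, against 0.0763%, 0.451% and 0.0686% of all genes without Untreated replicates 2, 3 and 4, and 0.00766% and 0.0458% without AMG-treated replicates 2 and 4.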

How the data were processed

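RNA was sequenced from 14 libraries. Per the labels, the libraries were stranded and poly(A)-selected, and the submitters' processing notes name mm10, FastQC 0.11.5, TopHat2 2.0.13 and HTSeq 0.5.3p3. The study's methods, written for another of its deposits, name the same tools for quality checks, alignment and counting, and single-end, uniquely aligned reads. The annotation release and the strand setting are not given in the sources used here, which leaves overlapping genes uncertain. What was deposited is a normalised signal, read counts that the authors divided by a DESeq size factor per library, separately in the table of replicate 1 and the table of replicates 2 to 4.

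All values came out as whole reads (100%, tolerance 0.1) when divided by the step of their library. Groups and replicate numbers came from the sample titles. At 5 h, log2(normalised count + 1) of replicates 2 to 4 was fitted with limma 3.58.1 (trend, two-sided, R 4.3.3) over 13096 genes with a mean of at least 10, with Benjamini-Hochberg adjustment over all of them and a threshold of 0.05. Fold changes on this scale understate those of low genes. Deviations from the group means correlated between Untreated and AMG-treated libraries of the same number (r = 0.65, 0.76 and 0.70) and not between others (r from -0.59 to 0.12), so the numbers paired the libraries and the fit with the replicate block is given beside the one without. What a number shares, and whether cultures were separate, is not stated, so p-values may measure technical spread only. Alternatives were other pseudocounts, filters and scalings, leaving out each library, a length correction, and edgeR 4.0.16 (quasi-likelihood) and DESeq2 1.42.0 on the recovered reads. The length trend was taken from GENCODE vM21 exon lengths, which also gave gene positions.

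Replicate 1 was described by log2 ratios with exact binomial 95% intervals, which cover counting error only, since reads carry no molecular identifiers. The 10 clock genes were all named, as were the other pathway genes called with or without the block. The members and lists were chosen with earlier results of these data known.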

Additional observations from a re-analysis of the deposited data

Results flagged for a closer look

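Untreated 5h replicate 1 lay far below the other 3 Untreated libraries at 5 h for 3 clock genes, when the recovered reads of all 8 libraries at 5 h were scaled together and each group of 4 was checked for a single library lying apart. Clock was at 433 normalised counts there, against 978 to 1079 in the others. Per1 was at 115 against 334 to 406, and Nr1d1 was at 189 against 838 to 1052. The search covered 20 groups, of which chance alone passes about 1 in 20. Untreated 5h replicate 1 had 7.0% of its reads in ribosomal protein genes. AMG-treated 5h replicate 1, with 3.24%, was also the lowest of its group of 4 for these 3 genes, without passing the check. It held 475 normalised counts of Clock (638 to 875 in the others), 266 of Per1 (378 to 445) and 356 of Nr1d1 (619 to 846). The lower values were thus shared by both libraries of that pair. The part of the ribosomal protein share or of the replicate in them was not tested.

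Arntl, Per1, Cry1, Cry2 and Nr1d2 had the same direction in all 4 pairs at 5 h and the opposite direction at another time of replicate 1, beyond the counting interval. These differences between times were not tested, because the other times had 1 pair each. The share of all genes that meet this rule was not taken. Of these genes, only Arntl and Cry1 were called at 5 h with the block. Per1, Cry2 and Nr1d2 were not called with or without it (adjusted p = 0.265, 0.236 and 0.0739 by limma with the block). Their direction at 5 h is therefore uncertain. Arntl had a log2 fold change of 0.65 at 5 h (replicates 2 to 4) but log2 ratios of -0.18 at 1 h and -0.16 at 24 h, and the 1 h value turned to 0.13 with the length correction. Cry1 was at 0.57 at 5 h and at -0.64 at 24 h. Per1 was at 0.18 at 5 h and at -0.53 at 1 h. Cry2 was at 0.18 at 5 h but at -1.01 at 1 h and -0.41 at 12 h. Nr1d2 was at -0.32 at 5 h and at 0.43 at 24 h. The 1 h values rest on AMG-treated 1h replicate 1, which had 5.10% of its reads in ribosomal protein genes.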

How the results depend on the processing

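At 5 h, with 0 of 10 clock genes and 0 of 22 other pathway genes called by limma, the replicate block called 6 and 6, edgeR with the replicate block 6 and 6 (the same genes as limma with the block), the block with a length correction 5 and 7, and DESeq2 1 and 2. Leaving out 1 library gave 0 to 1 clock genes and 0 to 6 others, and the calls came without AMG-treated replicate 3 only, where 16.8% of all genes passed (0.00766% to 0.451% without any other library). The block with the length correction called Arntl, Cry1, Dbp, Nr1d1 and Per3, so Clock and Per2 were lost and Nr1d1 was gained. The log2 fold change of Nr1d1 turned from -0.30 to 0.00019 with edgeR on all 4 replicates (adjusted p = 0.9995), a fit that adds the pair of replicate 1, and no other tested gene of either list named in the text turned. In replicate 1, the genes past 2-fold at 1 h fell from 2 to 1 with a pseudocount of 10 and to 1 with upper quartile rescaling. They rose to 3 at 1 h (24.2%) and 3 at 5 h (26.0%) with scaling to library totals. With the length correction they rose to 3 at 12 h (12.6%), and Nr1d1 took the place of Cry2 at 1 h and of Per3 at 5 h. The AMG-treated course count went from 8 (50.4% of all genes) to 10 with library totals and to 7 with the length correction. The shares of all genes under those alternatives are not given here. Scaling to library totals moved the median log2 ratio of all genes at 1 h from -0.06 to -0.27. In some alternative the sign changed for Arntl at 1 h, Clock at 5 h, Cry1 at 1 h, and Nr1d2 at 1 and 5 h. The genes past 2-fold over the Untreated course fell from 9 (52.2% of all genes) to 5 (19.8%) without the 5 h libraries. The cause of these changes was not tested, apart from the fewer or added libraries named. Replicate 1 has 1 library per point, which limits every statement on its course to these libraries.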

Other observations

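Lists of genes that respond to glucocorticoids and to cAMP, signals known to reset fibroblast clocks, were read beside the clock genes at 5 h in replicates 2 to 4. Of 5 tested glucocorticoid-responsive genes, limma called 1, Errfi1, a feedback inhibitor of the EGF receptor, which was higher with AMG by 2.44 ± 0.39 (log2, SE) with an adjusted p of 0.0438. The fit with the replicate block called 2 of the 5, Errfi1 higher and Klf9 lower, and the median log2 fold change of the list was 0.14. Tsc22d3, a classical glucocorticoid target, had a log2 fold change of 0.14 (adjusted p = 0.540 by limma), and Fkbp5, another, had 0.10 (adjusted p = 0.767 by limma). Of 5 tested cAMP-responsive genes, limma called 0. At an unadjusted p under 0.05 it passed 3 of them, against 23.1% of all genes. With the block 2 were called, Crem and Pde4b, both higher with AMG. The median of that list was 0.53, against -0.02 for all genes, of which limma called 1.24% without the block and 37.2% with it.

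Over the 8 libraries of replicate 1, which share their table and their times, the log2 normalised counts of the clock genes were compared pairwise. The highest Pearson correlations were those of Per3 with Cry2 (r = 0.90), Nr1d2 with Dbp (r = 0.88) and Per2 with Per3 (r = 0.85), and the lowest were those of Cry1 with Nr1d2 (r = -0.79) and Cry1 with Dbp (r = -0.71). Among 11380 other genes with a mean of at least 50, the 5 with a course most like that of Dbp were Atl1 (r = 0.973), Cep41, Gpt2, Ipo11 and Bcs1l (r = 0.959). The 5 most like Arntl were Tmem170b (r = 0.958), Dot1l, Mamld1, Lonrf1 and Fam107b (r = 0.948). These values describe 8 libraries, 2 of them with a high ribosomal protein share, and carry no test.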
